A study of Mus musculus with 18 samples.

Results

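The 7 genes described here encode the liver-derived hormones FGF21 (Fgf21) and GDF15 (Gdf15), the FGF21 co-receptor beta-klotho (Klb) and the 4 FGF receptor tyrosine kinases (Fgfr1, Fgfr2, Fgfr3 and Fgfr4). They were taken by gene symbol from a table of 37303 genes, and all 7 were found there.

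FGF21 is secreted mainly by hepatocytes during fasting, mitochondrial stress and amino acid shortage. It signals through an FGF receptor, above all FGFR1, only in cells that also carry beta-klotho, such as adipocytes and certain neurons. In hepatocytes the same co-receptor pairs with FGFR4 to receive FGF15 (FGF19 in humans), the gut hormone that restrains bile acid synthesis. GDF15 is a distant member of the TGF-beta superfamily that is induced by many cell stresses, and its receptor GFRAL is confined to the hindbrain, where it curbs food intake.

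RNA-Seq of polyadenylated RNA was carried out on livers of 18 C57BL/6J mice in 6 groups of 3. The mice were wild type (WT) or carried a homozygous deletion of Gcn2 (Gcn2-/-), the eIF2 kinase that senses uncharged tRNA, or of Atf4 (Atf4-/-), the transcription factor translated in response to eIF2 phosphorylation. Each strain received 8 daily intraperitoneal injections of asparaginase (ASNase) at 3 IU per gram body weight, or the same volume of phosphate buffered saline (PBS), and livers were taken 7.5 h after the last injection. ASNase is a drug used in leukemia that depletes blood asparagine and glutamine. The labels give the ages as 8 to 12 weeks in the growth notes and up to 16 weeks elsewhere. The WT PBS group and the 2 Gcn2-/- groups held 1 male each and the WT ASNase group and the 2 Atf4-/- groups 2 males each, so that the WT comparison of ASNase with PBS, among others, also differs in sex.

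Each value is the FPKM, a level scaled to transcript length and sequencing depth, that Cuffdiff estimated for a group from its 3 libraries together, with the lower and upper bound of its interval. Values of single mice were not analysed here, so there is no standard deviation, no replicate check and no p-value, and the interval is the error given with each value. The FPKM values carry no counts, and the depth behind each value is unknown from them. Among genes over an FPKM of 3, intervals reached a median of 51.3% to 54.2% above the value, depending on the group, so only large differences can be told from the error. Differences between groups were taken on log2(FPKM + 0.1), where the change of a low gene comes out too small. To be eligible, a gene needed an estimate above 0 in both groups and a value over 3 in at least 1. It was called when its log2 difference also exceeded 1.5 and the 2 intervals lay apart. The words rose and fell are kept for called differences. An error given with a log2 difference is the root of the summed squares of the distances to the upper bounds on that scale.

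Hepatocyte markers were abundant in all groups: 11 of the 12 on the list were above 0 in every group in which they had an estimate, and the other, Alb, had none. Markers of other tissues differed between groups. The summed FPKM of 10 pancreatic acinar markers was between 5.47 and 16.1 in the 3 PBS groups and in Gcn2-/- ASNase livers, but 71.5 in WT ASNase and 362 in Atf4-/- ASNase livers. The summed FPKM of 10 skeletal muscle markers under PBS and ASNase was 928 and 1328 for WT, 5.98 and 8.998 for Gcn2-/-, and 75.2 and 179 for Atf4-/- mice. At the gene level the deletions showed only in part. Atf4 was at 32.3 and 29.3 FPKM in the Atf4-/- groups and between 50.4 and 68.1 in the other 4. Eif2ak4, which encodes GCN2, lay between 2.19 and 3.14 in all 6 groups. A value summed over a whole gene does not test a deletion of some of its exons. From RNA read density plots the paper reports that Gcn2-/- mice lacked a Gcn2 exon and that Atf4-/- mice lacked Atf4. The paper also measured Atf4 by RT-qPCR.

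The stretch of sequence just before the Fgf21 start is shown first, because it holds the letters to which C/EBP-ATF heterodimers, ATF4 among them, are known to bind. Sequences are from RefSeq on GRCm38.p6, the same build as the mm10 of the reads, and positions are counted from the annotated transcription start as position 0. RefSeq windows of 250 bases before to 50 bases after the start were found for 6 of the 7 genes, all but Fgfr1. The Fgf21 stretch runs from -150 to -21, at chr7:45615511-45615640 on the minus strand, and the Gdf15 stretch covers the same positions before its upstream start, at chr8:70632477-70632606 on the minus strand. Capitals mark, in the order of the letters, a match to TGATGNAA on the opposite strand, the E-box CACGTG and the TATA box TATAAA.
Fgf21: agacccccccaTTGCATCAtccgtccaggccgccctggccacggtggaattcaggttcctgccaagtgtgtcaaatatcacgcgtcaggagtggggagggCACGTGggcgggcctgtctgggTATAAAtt
Gdf15: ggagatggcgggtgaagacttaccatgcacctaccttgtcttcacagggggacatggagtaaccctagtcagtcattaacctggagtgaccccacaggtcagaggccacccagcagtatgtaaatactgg

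In the Fgf21 window TTGCATCA lay from -139 to -132, CACGTG from -50 to -45 and TATAAA from -28 to -23. Searched on both strands, TGATGNAA was present in 3.97% of all 32851 windows of that length, CACGTG in 7.15%, and TATAAA in 13.6%. The core TGACG of the cAMP response element was in 20.8% of windows, among them the Fgf21 window, from -68 to -64 on the opposite strand, and the Klb window. The 2 Gdf15 windows held no TGATGNAA, TATAAA or TGACG, and the one at the downstream start held CACGTG. Of the other members, the Fgfr2 window held CACGTG, and the Fgfr3 and Fgfr4 windows held none of these motifs. A match of letters is not a measurement of binding, and its absence holds for these windows alone.

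Among the related genes and cell type markers that were listed for comparison, TGATGNAA stood in the windows of 10: Atf3, Angptl8, Inhbe, Rbp4, Fgl2, Bmp5, Ecm1, Cd5l, Cpa1 and Prss2. It is shown for Atf3, a stress-induced transcription factor, at chr1:191183425-191183454 on the minus strand, and for Angptl8, an insulin-induced hepatokine, at chr9:21835369-21835398 on the plus strand, to set beside their changes further on.
Atf3: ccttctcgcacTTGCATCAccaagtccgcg
Angptl8: agccatcagtcTGATGCAAtggctgagcct

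The first question was how Fgf21 in liver responds to ASNase and whether that response depends on GCN2 or ATF4. WT livers had 2.14 FPKM of Fgf21 under PBS (interval 0.434 to 3.85) and 29.3 under ASNase (14.6 to 43.9). Gcn2-/- livers had 8.31 under PBS (3.05 to 13.6) and 0.782 under ASNase (0 to 1.63). Atf4-/- livers had 1.17 under PBS (0.126 to 2.22) and 3.50 under ASNase (1.03 to 5.97). The WT ASNase value thus stood above all 5 others with no overlap of intervals, Gcn2-/- PBS came next, and the lowest value was that of Gcn2-/- ASNase livers. From the lowest to the highest group the level differed 37.4-fold. In that order the intervals of all neighbours overlapped except those of Gcn2-/- PBS and WT ASNase.

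**Figure D1:**
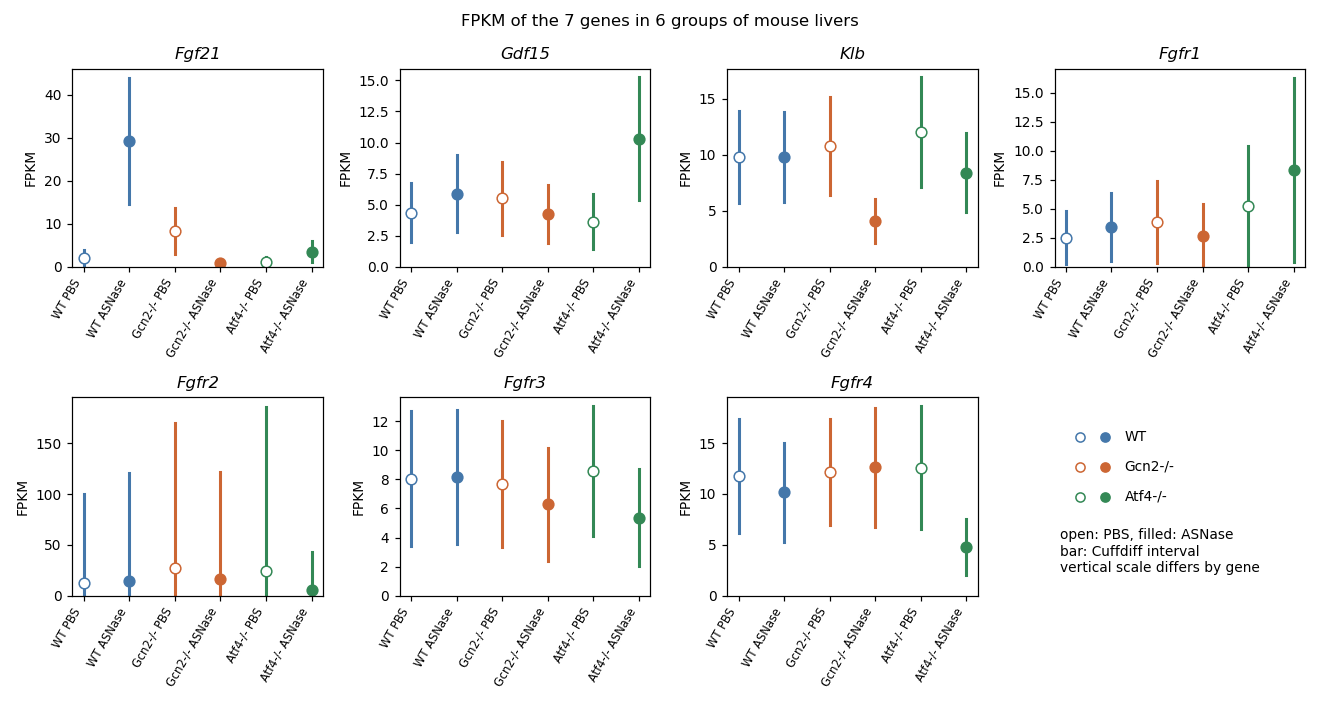
FPKM of each of the 7 genes (vertical axes, each from 0 and on its own scale) in the 6 groups, with open points for PBS, filled points for ASNase and bars for the Cuffdiff interval of the 3 pooled libraries. Fgf21 stands at 29.3 in WT ASNase livers and at no more than 8.31 elsewhere, whereas the bars of Gdf15, Fgfr1, Fgfr2, Fgfr3 and Fgfr4 overlap between all groups.

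In WT livers Fgf21 rose 13.7-fold with ASNase, a log2 difference of 3.71 (error 1.004). The lower bound under ASNase was 3.80 times the upper bound under PBS. Fgf21 was the only member of 7 called, in a comparison in which 0.881% of 9084 eligible genes were called. It stood 50th from the top of those genes by log2 difference. In Gcn2-/- livers the direction was the opposite, with Fgf21 10.6-fold lower under ASNase than under PBS (log2 difference -3.25, error 1.20), and it was again the only member called, against 3.69% of 9218 genes. In Atf4-/- livers 0 of 7 members were called, against 7.37% of 9485 genes. There the Fgf21 value under ASNase was 2.98 times that under PBS, the log2 difference came out just under the limit at 1.4998 (error 1.15), and the intervals overlapped.

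The responses themselves were then set against each other. A difference of 2 responses was called when it exceeded both 1.5 on the log2 scale and its own error, combined from the 4 values. For Fgf21 the Gcn2-/- response lay 6.97 log2 units below the WT response (log2 difference -6.97, error 1.57), where 6.89% of 9523 genes were called and 13 genes, Fgf21 included, differed by as much. The Atf4-/- response was lower than that of WT by 2.21 (log2 difference -2.21, error 1.53). There 9.71% of 9698 genes were called and 499 differed by as much. This call rests on upper bounds alone and was not tried with the lower ones. The Atf4-/- PBS value of 1.17 FPKM had a lower bound of 0.126. Between the 2 deletions the Atf4-/- response was the higher by 4.75 (error 1.66), where 5.93% of 9684 genes were called and 33 differed by as much. The 3 differences share groups and are not independent of each other.

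Compared within a treatment, Fgf21 under ASNase was lower in Gcn2-/- than in WT livers by 37.4-fold (log2 difference -5.06, error 1.14) and lower in Atf4-/- than in WT livers by 8.37-fold (log2 difference -3.03, error 0.95). It was the 1 member called in each, where 4.41% and 8.25% of eligible genes were called. Both use the same WT ASNase group. Between the deletions under ASNase the Atf4-/- value was 4.47 times that of Gcn2-/- (log2 difference 2.03), the intervals overlapped, and 0 members were called, against 3.19% of genes. The difference of 2.72 FPKM was larger than its combined error of 2.61.

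Under PBS Fgf21 also differed between the deletions. It was 7.09-fold lower in Atf4-/- than in Gcn2-/- livers (log2 difference -2.73, error 1.11), again the only member called, against 0.976% of 9015 genes. Neither deletion gave a call against WT under PBS, where 1.04% of genes were called for Gcn2-/- and 1.12% for Atf4-/-. In Gcn2-/- PBS livers the Fgf21 value was 3.88 times that in WT PBS livers (log2 difference 1.91, error 1.08) with overlapping intervals, and the difference of 6.17 FPKM was over its combined error of 5.54. The value in Atf4-/- PBS livers, with a log2 difference of -0.82 (error 1.19) from WT, was not eligible, since both values were under 3.

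The exocrine pancreas is a known site of Fgf21 expression, and the acinar markers moved with Fgf21 in some of these comparisons. Of the 10 acinar markers, 9 were under an FPKM of 1 in WT PBS livers and 1 was in WT ASNase livers. Ctrb1, which encodes a chymotrypsinogen, went from 0.245 to 19.7 between those groups and from 0.383 to 176 in Atf4-/- livers. The summed acinar level was 5.36 times as high under ASNase as under PBS in WT livers and 22.4 times in Atf4-/- livers. Under ASNase it was 5.06 times as high in Atf4-/- as in WT livers, whereas Fgf21 was 8.37-fold lower there. In Gcn2-/- livers the summed acinar level was 1.94-fold lower under ASNase than under PBS, and Fgf21 was 10.6-fold lower. There 7 of the 10 markers were listed at 0 in both groups. The summed skeletal muscle level was 155-fold lower in Gcn2-/- PBS than in WT PBS livers, where Fgf21 was the higher of the 2 values. The part of pancreatic or muscle RNA in the Fgf21 levels was not tested in any group. In bulk tissue, fewer cells of a type and less RNA per cell cannot be told apart.

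**Figure D2:**
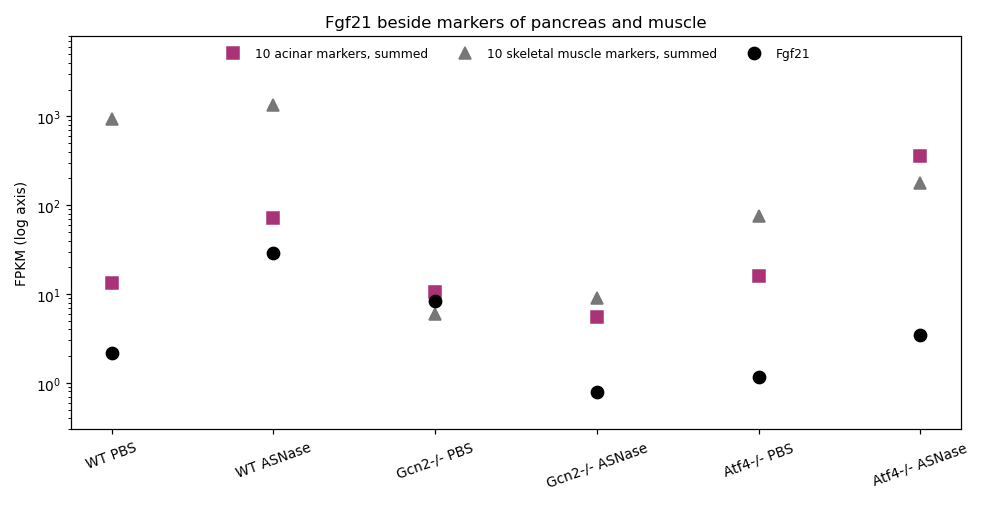
FPKM of Fgf21 (circles) beside the summed FPKM of 10 pancreatic acinar markers (squares) and 10 skeletal muscle markers (triangles) in the 6 groups, on a log axis. The acinar sum is highest at 362 in Atf4-/- ASNase livers, where Fgf21 is at 3.50, and Fgf21 is highest in WT ASNase livers, where that sum is 71.5.

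Gdf15, the stress-induced cytokine, followed another pattern. WT livers had 4.37 FPKM under PBS (1.98 to 6.76) and 5.87 under ASNase (2.77 to 8.97). In Gcn2-/- livers it was at 5.51 under PBS (2.56 to 8.47) and 4.25 under ASNase (1.89 to 6.60). In Atf4-/- livers it was at 3.63 under PBS (1.39 to 5.87) and 10.3 under ASNase (5.38 to 15.3). Both the lowest and the highest value thus came from Atf4-/- livers, 2.84-fold apart, and the intervals overlapped in all 15 pairs of groups.

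Gdf15 was called in 0 of the 9 comparisons. Its log2 difference with ASNase was 0.42 in WT livers (error 0.86). The Gcn2-/- and Atf4-/- values were -0.37 (error 0.87) and 1.48 (error 0.88). In Atf4-/- livers the difference of 6.69 FPKM exceeded its combined error of 5.42 although the intervals overlapped, and Gdf15 stood 508th from the top among 9485 genes. The Gdf15 response was called as different between Atf4-/- and Gcn2-/- livers, at 1.85 (error 1.24). In that contrast 5.93% of 9684 genes were called and 464, Gdf15 included, differed by as much. Against WT it was not called, with a log2 difference of 1.06 (error 1.23) for Atf4-/- and -0.79 (error 1.23) for Gcn2-/-. Where Gdf15 was highest, Fgf21 was at 3.50 FPKM, and where Fgf21 was highest, Gdf15 was at 5.87.

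**Figure D3:**
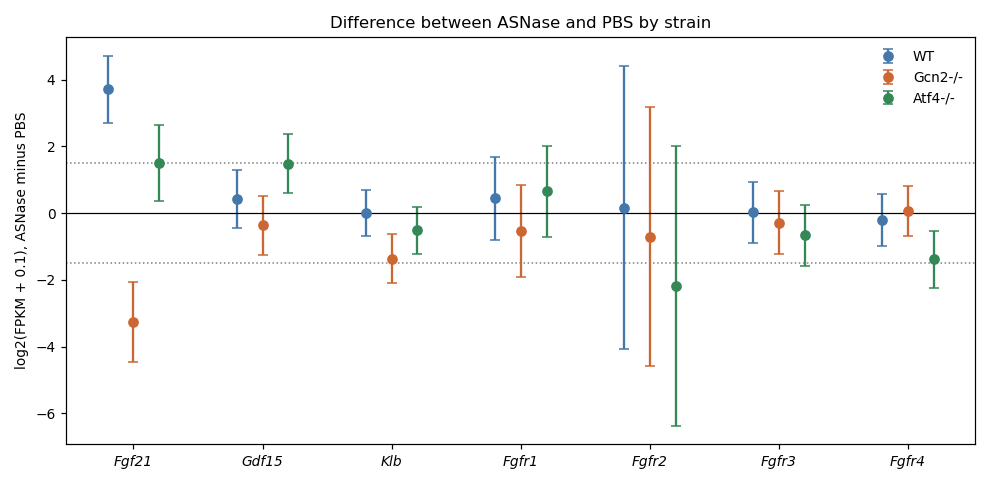
Difference between ASNase and PBS on log2(FPKM + 0.1) for each gene in WT, Gcn2-/- and Atf4-/- livers, with error bars as defined in the text and dotted lines at the limit of 1.5 in both directions. Fgf21 lies at 3.71 in WT, -3.25 in Gcn2-/- and 1.4998 in Atf4-/- livers, Gdf15 reaches 1.48 in Atf4-/- livers, and the wide bars of Fgfr2 cover 0 in all strains.

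The receptor side of the FGF21 pathway gave no call in any of the 9 comparisons. Klb, the beta-klotho gene, was at 9.79 FPKM under PBS (5.70 to 13.9) and 9.80 under ASNase (5.78 to 13.8) in WT livers. The Gcn2-/- values were 10.8 (6.37 to 15.2) and 4.10 (2.16 to 6.04), and the Atf4-/- values 12.0 (7.09 to 16.9) and 8.37 (4.85 to 11.9). The Gcn2-/- ASNase value was the lowest, and its interval lay apart from those of Gcn2-/- PBS and Atf4-/- PBS livers only. Klb was 2.63-fold lower under ASNase in Gcn2-/- livers (log2 difference -1.37, error 0.74). The intervals did not overlap, as for 4.24% of eligible genes there, but the difference was under the limit of 1.5. In WT livers the log2 difference of Klb was 0.00 (error 0.70), and in Atf4-/- livers it was -0.52 (error 0.70). The difference between the Gcn2-/- and WT responses, -1.37 (error 1.02), was under the limit as well. Fgf21 and Klb were thus both at their lowest in Gcn2-/- ASNase livers.

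Fgfr4 is the main FGF receptor of hepatocytes. It was between 10.2 and 12.6 FPKM in 5 groups and at 4.75 in Atf4-/- ASNase livers (1.99 to 7.51). Against Atf4-/- PBS livers, at 12.6 (6.53 to 18.6), this was 2.65-fold lower (log2 difference -1.39, error 0.86), with overlapping intervals and a difference of -7.84 FPKM whose size exceeded the combined error of 6.65. The difference from the Gcn2-/- ASNase group was of the same size, with a log2 difference of -1.39 (error 0.85). In WT and Gcn2-/- livers the log2 differences with ASNase were -0.21 (error 0.79) and 0.05 (error 0.75). The Atf4-/- response differed from that of Gcn2-/- by -1.44 (error 1.14), over its error but under the limit. Hepatocyte markers had a median log2 difference of -0.58 with ASNase in Atf4-/- livers and -0.27 in Gcn2-/- livers. Of these markers 0 were called in each, against 7.37% and 3.69% of all eligible genes. Their summed FPKM was 14355 under ASNase against 31947 under PBS in Atf4-/- livers, a 2.23-fold difference, although Serpina1a had no estimate under PBS and entered the ASNase sum only. The sum in Gcn2-/- livers was 21457 against 38676, 1.80-fold lower. The part of such a shift in the Fgfr4 and Klb values was not tested.

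Fgfr3 had the narrowest range of the 7 genes. Its lowest value was 5.37 FPKM in Atf4-/- ASNase livers (2.01 to 8.74) and its highest 8.58 in Atf4-/- PBS livers (4.07 to 13.1), a 1.60-fold range. The log2 differences with ASNase were 0.02 in WT, -0.29 in Gcn2-/- and -0.66 in Atf4-/- livers, each smaller than its error of 0.91 to 0.94. The annotation places 998 exon bases of Fgfr3 under a transcript on the opposite strand, and the sources used here do not say that strand was used in counting.

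Fgfr1, the receptor through which FGF21 acts on adipose tissue and brain, was low in liver. WT livers had 2.52 FPKM under PBS (0.277 to 4.76) and 3.46 under ASNase (0.528 to 6.39). Gcn2-/- livers had 3.82 (0.291 to 7.36) and 2.61 (0 to 5.41). The Atf4-/- values were the highest, at 5.25 under PBS (0.0685 to 10.4) and 8.35 under ASNase (0.449 to 16.3), and all intervals overlapped. The range over the 6 groups was 3.32-fold. Among the 9 comparisons the largest difference, between Atf4-/- and Gcn2-/- livers under ASNase, was 3.20-fold (log2 difference 1.64, error 1.40). Fgfr1 shares 164 exon bases with an antisense gene.

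Fgfr2 was measured with little precision in this table. Its values ran from 5.30 FPKM in Atf4-/- ASNase livers (0 to 43.2) to 27.4 in Gcn2-/- PBS livers (0 to 170). In each of the 6 groups the interval reached down to 0. The distance to the upper bound was 521% to 733% of the value. The position given for Fgfr2, on chromosome 7 from 130162451 to 133124354, was shared by 41 genes of the table. In GENCODE M21, 26 of the 27 Fgfr2 transcripts lie within 104 kb, and the other 1 extends 2.86 Mb further upstream. It shares 314 exon bases on the same strand with Ctbp2. Of the 41 genes, 24 were above 0 in all groups, and all 24 had wider intervals in every group than the median gene. The log2 difference of -2.18 in Atf4-/- livers, with an error of 4.19, is therefore given as a value only. The other 6 members span at most 62065 bases each, and Fgf21, Gdf15, Klb and Fgfr4 overlap no other annotated gene.

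**Figure D4:**
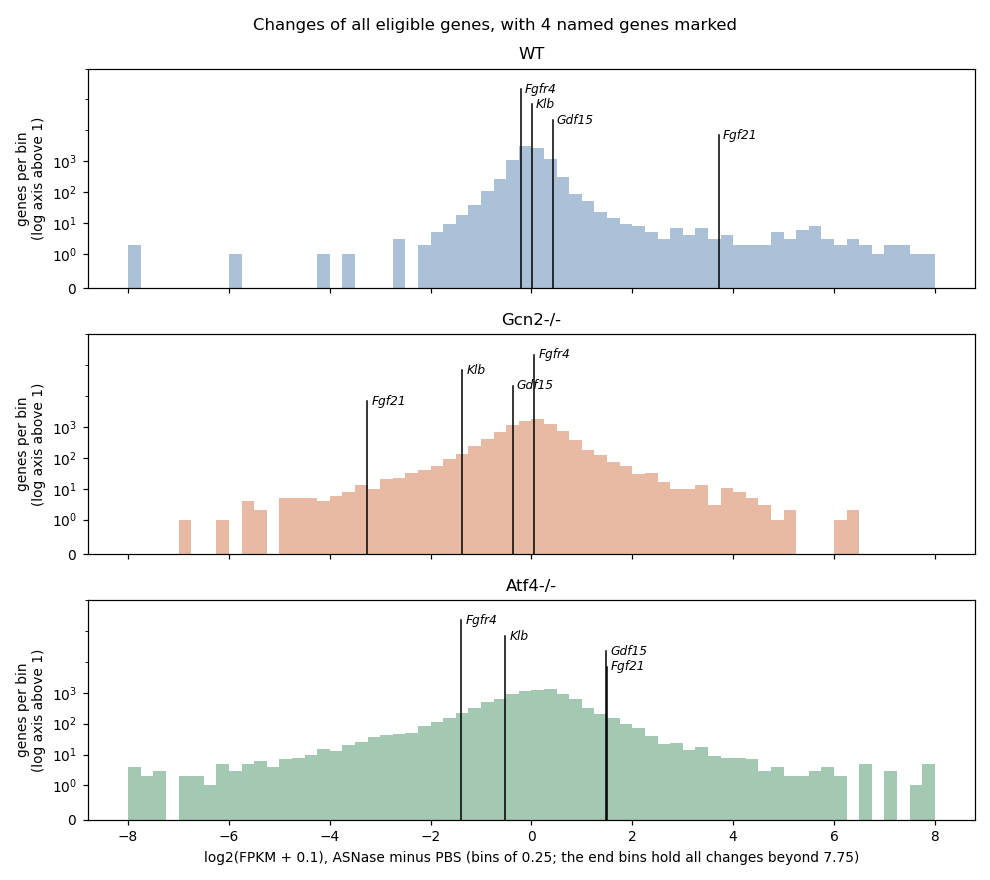
Number of eligible genes (vertical axis, log scale above 1) by their log2 difference between ASNase and PBS (horizontal axis, bins of 0.25) in WT, Gcn2-/- and Atf4-/- livers, with lines at Fgf21, Gdf15, Klb and Fgfr4 whose heights carry no value. Fgf21 lies in the upper tail in WT at 3.71 and in the lower tail in Gcn2-/- livers at -3.25, and the distribution is wider in Atf4-/- livers, where Fgfr4 is at -1.39 and Gdf15 at 1.48.

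Because FPKM is scaled to transcript length, levels can be set side by side between genes. In WT PBS livers Fgfr2 at 12.9 FPKM, Fgfr4 at 11.8, Klb at 9.79 and Fgfr3 at 8.03 had overlapping intervals. Gdf15 at 4.37, Fgfr1 at 2.52 and Fgf21 at 2.14 had lower values, also with intervals that overlapped each other. The interval of Gdf15 (1.98 to 6.76) also overlapped those of Fgfr2, Fgfr4, Klb and Fgfr3. Those of Fgfr1 (0.277 to 4.76) and Fgf21 (0.434 to 3.85) overlapped Fgfr2 (0 to 100) and Fgfr3 (3.39 to 12.7) but not Klb or Fgfr4. In WT ASNase livers Fgf21 at 29.3 FPKM was the highest of the 7, above Fgfr2 at 14.5, Fgfr4 at 10.2 and Klb at 9.80. Its interval of 14.6 to 43.9 lay inside that of Fgfr2 (0 to 121) and still overlapped that of Fgfr4 (5.31 to 15.03).

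Of 21 other FGF ligand genes, 20 were under an FPKM of 1 in all groups, and 5 of these, Fgf15 among them, were listed at 0 throughout. The exception was Fgf1, a heparin-binding ligand of all FGF receptors. Under PBS and ASNase it was at 31.6 and 26.3 FPKM in WT, 24.2 and 40.7 in Gcn2-/-, and 38.1 and 5.23 in Atf4-/- livers. Its log2 difference of -2.84 in Atf4-/- livers was past the limit but its intervals (7.22 to 68.9 under PBS and 0 to 11.7 under ASNase) overlapped. Fgf1 and Fgfr4 thus shared their lowest group. Kl, which encodes the klotho co-receptor of FGF23, did not exceed 0.00833 FPKM.

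Of the 12 other receptor partners, 9 were under 1 FPKM in all groups. Fgfrl1, a receptor without a kinase domain, and the cadherins Cdh1 and Cdh2 were over 3. These 3 were the eligible ones and gave 0 calls in the 9 comparisons, against 0.881% to 8.25% of all eligible genes. Fgfrl1 was at 12.7 under PBS and 5.21 under ASNase in Gcn2-/- livers, where its log2 difference was -1.27.

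Of the 18 adaptor and RAS-MAP kinase genes matched, which carry the receptor signal inward, 15 or 16 were eligible in each comparison. In all 9 comparisons 0 were called, against 0.881% to 8.25% of all eligible genes. The adaptor and kinase genes had median log2 differences with ASNase of 0.03, 0.04 and 0.02 in WT, Gcn2-/- and Atf4-/- livers. Over all genes with a mean FPKM above 1 these were 0.00, 0.03 and 0.05. Of the 16 feedback and target genes of FGF signaling, 5, 6 and 7 were eligible with ASNase in WT, Gcn2-/- and Atf4-/- livers, and 0, 0 and 1 were called, against 0.881%, 3.69% and 7.37% of all eligible genes. That gene was Ccnd1, encoding cyclin D1, which fell from 20.1 to 1.13 FPKM (log2 difference -4.04). Egr1, an immediate early target of MAP kinase signaling, was higher under PBS in Gcn2-/- (log2 difference 1.72) and Atf4-/- livers (1.94) than in WT, at 11.2 and 13.1 against 3.34 FPKM, the same WT PBS group serving both. Of the heparan sulfate proteoglycans and their enzymes, on which FGF binding to its receptors depends, 13 to 15 were eligible. The 1 call in 9 comparisons was Gpc1, encoding glypican 1, at 0.54 in Gcn2-/- ASNase and 3.28 in WT ASNase livers (log2 difference -2.41). In that comparison 4.41% of all eligible genes were called.

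The FGF15-FGFR4-beta-klotho route controls bile acid synthesis. Of 8 genes of this route measured, 0 were called with ASNase in WT livers, 3 fell in Gcn2-/- livers and 3 fell in Atf4-/- livers. Over all eligible genes 2.13% fell with ASNase in Gcn2-/- livers and 4.63% in Atf4-/- livers, and 1.56% and 2.74% rose. In WT livers 0.881% of all eligible genes were called. The 8 genes had median log2 differences of -0.10, -1.22 and -1.84 in the 3 strains, beside 0.00, 0.03 and 0.05 over all genes with a mean FPKM above 1. Cyp8b1, the sterol 12-alpha-hydroxylase that sets the share of cholic acid, was at 201 FPKM under PBS and 190 under ASNase in WT livers. It fell from 58.2 to 8.22 in Gcn2-/- livers (log2 difference -2.81) and from 56.3 to 1.81 in Atf4-/- livers (log2 difference -4.89). Under PBS, Cyp8b1 was already lower in both deletions than in WT, by log2 differences of -1.79 and -1.83.

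Nr0b2, which encodes the repressor SHP that acts downstream of the bile acid receptor FXR, fell from 32.3 to 11.1 in Gcn2-/- livers (log2 difference -1.54) and from 24.3 to 1.03 in Atf4-/- livers (log2 difference -4.43). Cyp7b1, of the alternative synthesis pathway, fell in Gcn2-/- livers (log2 difference -1.66). Slc10a1, the hepatocyte uptake transporter for bile acids, fell in Atf4-/- livers (log2 difference -1.85). Cyp7a1, the rate-limiting enzyme of bile acid synthesis, was at 124 and 187 FPKM in WT, 75.8 and 35.3 in Gcn2-/- and 154 and 32.5 in Atf4-/- livers under PBS and ASNase. Its intervals reached 0 in all groups, and it was not called.

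Of the GDF15 receptor genes, Gfral was listed at 0 in all groups and its co-receptor Ret did not exceed 0.0412 FPKM. Of the enzymes that process or shed these proteins, Furin, a proprotein convertase, was between 44.3 and 67.2 FPKM. Of the 7 GDF15 receptor and processing genes, 4 or 5 were eligible. In the 9 comparisons 0 were called, against 0.881% to 8.25% of all eligible genes. Among 28 other TGF-beta superfamily ligands, 7 were eligible with ASNase in WT and in Gcn2-/- livers. Of these 0 were called, against 0.881% and 3.69% of all eligible genes. Of 8 eligible in Atf4-/- livers, 1 rose and 1 fell, where 2.74% of all eligible genes rose and 4.63% fell. The median of the 12 expressed ones there was -0.41. The 2 called were Inhbb, from 0.77 to 6.89 FPKM (log2 difference 3.01), and Inhbc, from 34.5 to 7.39 (log2 difference -2.21). Both encode inhibin or activin beta subunits. Inhbe, the activin E gene, was at 29.2 FPKM in WT ASNase and 4.86 in Atf4-/- ASNase livers (log2 difference -2.56, called). It was at 19.3 in Gcn2-/- ASNase livers.

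Among 30 genes known to regulate Fgf21 or Gdf15, 27 were eligible in each strain. With ASNase 0 were called in WT livers, where Fgf21 rose, against 0.881% of all eligible genes. There 28 of the 30 had a log2 difference above 0, with a range from -0.06 to 1.34 and a median of 0.26 beside 0.00 over all genes. In Gcn2-/- livers, where Fgf21 fell, the 1 call was Nr1d1, the circadian repressor REV-ERB alpha, against 3.69% of all eligible genes. Nr1d1 fell from 46.6 to 9.33 FPKM (log2 difference -2.31). The counts of 0 and 1 are near those shares. In Atf4-/- livers 7.37% of all eligible genes were called. Of the regulators there, Atf3 rose from 0.90 to 13.3 FPKM (log2 difference 3.75) and Atf5 rose from 80.0 to 339 (log2 difference 2.08). Creb3l3, a hepatocyte activator of Fgf21 in fasting, fell from 125 to 26.0 (log2 difference -2.26). Ddit3, encoding CHOP, was at 8.87 under PBS and 73.1 under ASNase there, with overlapping intervals (0 to 18.3 and 4.79 to 141). Ppara, the fatty acid receptor that drives Fgf21 in fasting, was at 43.8 and 8.52 in Atf4-/- livers, also with overlapping intervals.

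Of the 10 listed genes that share TGATGNAA with Fgf21, 8 were eligible with ASNase in WT livers and 1 rose, the acinar marker Prss2. Over all eligible genes 0.881% were called there. For Gcn2-/- livers 6 of the 10 were eligible and 0 were called, against 3.69% of all eligible genes. For Atf4-/- livers 9 of the 10 were eligible, of which 3 rose (Atf3 and the acinar markers Cpa1 and Prss2) and 2 fell (Angptl8 and the Kupffer cell marker Cd5l). Over all eligible genes 2.74% rose and 4.63% fell there. Atf3 and Angptl8 were picked for display after their values were seen. In the order WT, Gcn2-/- and Atf4-/-, the log2 differences with ASNase were 1.15, 1.66 and 3.75 for Atf3, and 1.32, 0.00 and -2.84 for Angptl8. For Fgf21 these values were 3.71, -3.25 and 1.4998.

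Other hepatokines, proteins that the liver secretes into the blood, gave 0 calls with ASNase in WT livers among 27 eligible genes. Over all eligible genes 0.881% were called there. Of 25 eligible in Gcn2-/- livers, 1 rose and 1 fell, where over all eligible genes 1.56% rose and 2.13% fell. Tsku, encoding tsukushi, rose from 10.1 to 44.6 FPKM (log2 difference 2.14). Igfbp2, encoding an IGF-binding protein, fell from 654 to 135 (log2 difference -2.27). In Atf4-/- livers 1 rose and 5 fell of 28 eligible genes, where over all eligible genes 2.74% rose and 4.63% fell. Fst, the activin antagonist follistatin, rose from 1.04 to 8.55 (log2 difference 2.93). Lect2 fell from 105 to 9.98 (log2 difference -3.39), Angptl8, which the table lists as Gm6484, from 89.3 to 12.4, and Enho, encoding adropin, from 35.6 to 6.59 (log2 difference -2.42). The medians of the list were -0.11, -0.31 and -0.37 in WT, Gcn2-/- and Atf4-/- livers. Over all genes with a mean FPKM above 1 they were 0.00, 0.03 and 0.05. Within this list and the 7 members, Fgf21 was the only secreted product called with ASNase in WT livers. The 0 calls among the other hepatokines are near the share over all genes.

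**Figure D5:**
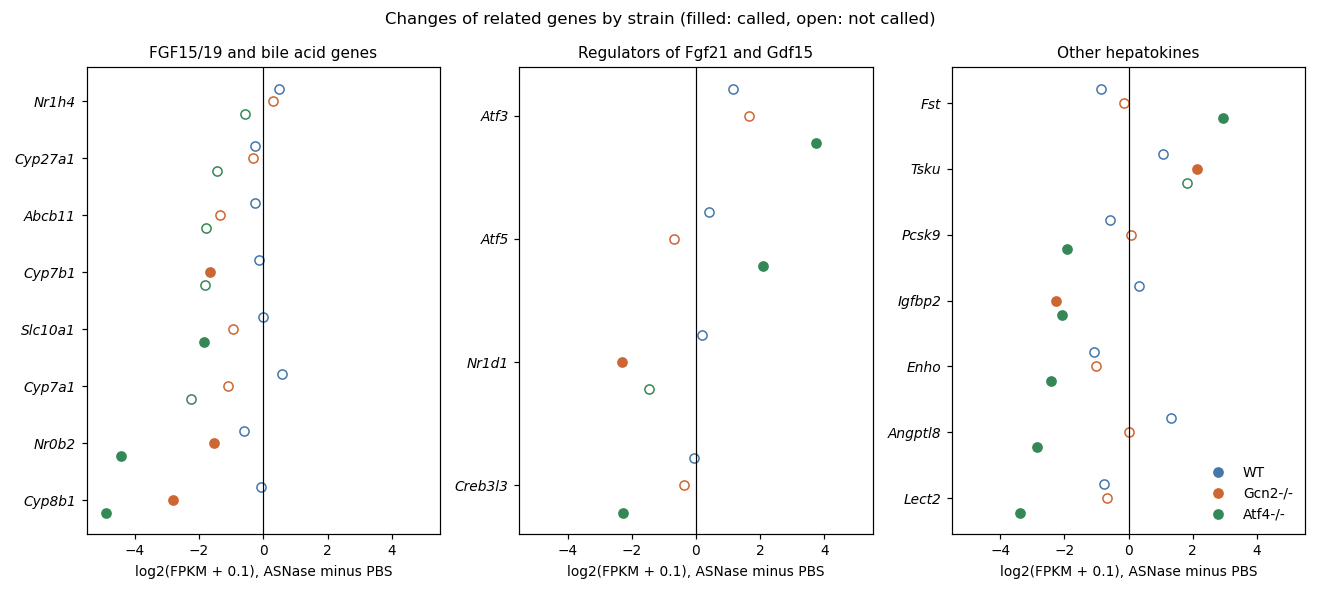
Log2 difference between ASNase and PBS (horizontal axis) for the 8 measured genes of the FGF15 and bile acid route, and for the regulators and other hepatokines called in any strain, with filled points for called differences and open points for the others. The bile acid genes spread from Cyp8b1 at -4.89 in Atf4-/- livers to Cyp7a1 at 0.59 in WT livers, and no WT point is filled.

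Genes whose levels ran most like those of a member over the 6 groups were ranked by Pearson's r on log2(FPKM + 0.1), among 3960 genes that were above 0 in all groups and spanned at least 1 log2 unit. These r values describe 6 pooled values each. For Fgf21 the leading genes were D730003I15Rik (r = 0.94), Krt23 (0.93) and the small RNA genes SCARNA20, SNORA48 and U3 (0.91 each). Krt23, encoding a keratin, was at 8.79 FPKM in WT ASNase, 4.95 in Gcn2-/- PBS and 0.20 in Gcn2-/- ASNase livers. Mature small RNAs of these classes lack poly(A) tails, and the libraries were made from polyadenylated RNA. For Gdf15 the leading genes were Smn1, Trmt1, 2410018M08Rik, Sars and CAAA01066805.1, with r from 0.97 to 0.98. Sars, a seryl-tRNA synthetase gene, was at 53.3 FPKM in Atf4-/- ASNase livers and between 20.9 and 31.2 in the other groups.

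For Klb they were S100a9, Tgfbi, Tmco4, Paics and Nox4, with r from 0.971 to 0.996. S100a9, a neutrophil gene, was at 0.17 FPKM in Gcn2-/- ASNase livers, where Klb was lowest, and between 2.57 and 7.07 elsewhere. For Fgfr4 they were F11, Pxmp4, 2610507I01Rik, Inhbc and Gm15135, with r from 0.990 to 0.998. F11, which encodes coagulation factor XI, was at 4.89 FPKM in Atf4-/- ASNase livers and between 30.5 and 43.1 elsewhere. The genes nearest to Fgfr1 were Gm17566, AC149222.1, Gm17709, Zkscan1 and Cecr2, and those nearest to Fgfr2 were Arhgap29, Pafah1b3, Susd1, Hopx and Slc16a12. Fgfr3 spanned too narrow a range to be ranked.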

How the data were processed

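The authors prepared poly-A libraries with the TruSeq v2 kit, mapped 100 bp single-end reads with TopHat against mm10, and ran Cuffdiff for the expression estimates. The table they deposited holds 1 FPKM per gene and group, from 3 libraries together, with interval bounds in FPKM and a status. In 160 values of 45 genes the status was not OK, and these were left out. Comparisons used log2(FPKM + 0.1) and the limits given above, in 9 comparisons of groups and 3 differences of responses. The limits on FPKM and fold follow those the study used. Its limit on the false discovery rate was replaced by intervals that lie apart, so counts of calls cannot be set beside the study's. Named genes were the 7 members, up to 4 called genes with the largest difference per list and comparison, and the 5 genes most like each member. Ddit3, Ppara, Fgf1, Cyp7a1, Fgfrl1, Furin, Ret, Kl, Ctrb1 and the genes of the shared motif were named after their values were seen. The members, gene lists and limits were chosen with earlier results of these data known. Gene positions and overlaps came from GENCODE M21. No per-library test could be fitted. The rule was tested on simulated data. Alternatives were other pseudocounts, FPKM minima, fold limits and interval rules, and median-ratio scaling. Python 3.11.15, pandas 2.3.3 and numpy 2.4.6 were used.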

Additional observations from a re-analysis of the deposited data

How the results depend on the processing

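Pseudocounts of 0.01 and 1 and median-ratio scaling were the alternatives that alter a log2 difference. Under them all 189 log2 differences of the 7 genes moved by less than their errors, and none of those called changed sign. The 18 differences of responses of Fgf21 and Gdf15 kept their direction and their call under the same alternatives. None of these took the errors from the lower bounds. With a log2 limit of 1 the calls of these responses also stayed, although the Gdf15 difference between Atf4-/- and WT, at 1.06, then passed the limit and was not called because its error was 1.23. Of 63 alternative counts of members called, 60 equalled the main count. With a log2 limit of 1 the count in Gcn2-/- livers was 2 in place of 1, Klb being added. With a combined interval in place of separate ones, the count was 1 in place of 0 for Gcn2-/- against WT under PBS and for Atf4-/- against Gcn2-/- under ASNase, Fgf21 in both. No paired analysis was possible because the columns hold 1 pooled value per group and carry no replicate, and for the same reason no library could be left out. Sex, and pancreatic or muscle RNA, cannot be separated from the groups with these values.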
